A study of Homo sapiens with 2 samples.

Results

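The miR-302 and miR-371 clusters are a pair of miRNA clusters that are active in human pluripotent cells. Their 8 guide strands are hsa-miR-302a, hsa-miR-302b, hsa-miR-302c, hsa-miR-302d and hsa-miR-367 of the first cluster and hsa-miR-371-3p, hsa-miR-372 and hsa-miR-373 of the second, written below without hsa, the prefix for human. They were taken by name from a human miRNA array, on which they are 8 of 1329 probes. The guide strand is the arm of a miRNA hairpin that is mostly kept in the silencing complex, and the other arm is called the passenger strand. The clusters were chosen by their signals on both arrays, among them the higher signal of miR-302d on the hypoxia array. All values below are therefore descriptions without a test.

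In human embryonic stem cells the miR-302 cluster is transcribed as 1 primary RNA under the control of OCT4 and SOX2, and it is silenced as cells differentiate. Its products repress inhibitors of the cell cycle, and their forced expression helps to reprogram somatic cells. The miR-371 cluster is active in the same cells and in germ cell tumors, where miR-372 and miR-373 act as oncogenes that repress the kinase LATS2. A miRNA finds its targets through its seed, the 7 bases from position 2 to 8, so miRNAs with the same seed share many predicted targets.

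The cells were MKN1, an established line of human gastric cancer cells. A culture was held for 24 h in hypoxia (1% O2) and compared with a culture in normoxia. The labels give no oxygen level for normoxia, and the study's figure legends name 20% O2 for normoxic controls. Biotin-labeled total RNA of each culture was put on a GenoSensor array that carries probes for mature miRNAs and for precursors, with 1 array per condition. The labels name no other treatment, and RNA of whole cultures cannot tell more cells of a kind from more RNA per cell. The values are signal intensities that the authors normalized on global signal intensity, on a linear scale. The lowest listed signal was 20, and the other probes were given as 0. With 1 array per condition there was no replicate spread, so no difference could be tested, and precision is limited by having only 2 arrays. A probe was counted when its signals differed by over 2-fold, the size used in the study's methods. Those methods also name a Student's t-test for each miRNA, which was not repeated here. Signals of different probes depend on how well each probe binds, so levels were compared between conditions and not between miRNAs. Across probes, signal served to fit a trend and to pick probes of similar signal.

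The guide sequences show which members the array had to keep apart, and which share a seed. All 8 members matched a mature miRNA of the RefSeq annotation of GRCh38.p14 by name, and its sequences are printed 5′ to 3′ with the seed in capitals.
miR-302a: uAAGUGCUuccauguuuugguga
miR-302b: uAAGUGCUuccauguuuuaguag
miR-302c: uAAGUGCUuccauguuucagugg
miR-302d: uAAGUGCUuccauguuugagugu
miR-367: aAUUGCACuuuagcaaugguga
miR-371-3p: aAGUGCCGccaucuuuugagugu
miR-372: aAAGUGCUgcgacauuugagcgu
miR-373: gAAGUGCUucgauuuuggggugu
miR-302a to miR-302d, miR-372 and miR-373 share 1 seed across both clusters, while miR-367 and miR-371-3p each have another. miR-302a to miR-302d are identical over their first 17 bases and differ only in the last bases of the 3′ end. Counted from 1 at the 5′ end, miR-302a differs from miR-302d by U18G, G19A and A23U, miR-302b by U18G, A22G and G23U, and miR-302c by C18G and G23U. Compared base by base, miR-302d differs from miR-373 at 5 positions and from miR-372 at 6. No source used here gives the probe sequences, and how far each probe also bound RNA of its near-identical neighbors was not tested.

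The miR-302 cluster lies on the minus strand at chr4:112647874-112648557 (GRCh38.p14), where its 5 hairpins span 684 bases in the order MIR302B, MIR302C, MIR302A, MIR302D and MIR367 in the direction of transcription. The noncoding gene MIR302CHG on the same strand and the protein-coding gene LARP7 on the opposite strand both span all 5 hairpins. The mature miR-302d lies at chr4:112648006-112648028. The miR-371 cluster lies on the plus strand at chr19:53787675-53788773, where its 3 hairpins span 1099 bases.

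Within the miR-302 cluster, the signal of miR-302d was 1099 under normoxia and 3011 under hypoxia. The ratio of hypoxia to normoxia was 2.74, or 1.45 on the log2 scale. miR-302d was the only member that differed by over 2-fold between the arrays, which makes 1 of the 7 members with a signal on both arrays. No member was over 2-fold lower. Over the whole array, 663 probes were measured under both conditions, and of these 9.65% were over 2-fold higher under hypoxia and 2.11% were over 2-fold lower. These shares were 9.02% and 2.35% for the 510 mature probes among them, and 11.8% and 1.31% for the 153 precursor probes. The balance of higher and lower probes moved with the scaling, with 64 higher and 14 lower as deposited, 47 and 32 once the arrays were centred on their medians, 37 and 31 with quantile normalization, and 104 and 3 when scaled to equal totals. The median log2 fold change of all probes was 0.14 as deposited, 0.0 by centring and 0.33 with equal totals. Since the members were chosen with these signals known, nothing is read from the share among them. Among the 510 mature probes, miR-302d ranked 16th by fold change.

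The other guide strands of this cluster differed less between the arrays. miR-302a, which shares its first 17 bases with miR-302d, gave 949.7 on the normoxia array and 991 on the hypoxia array (log2 fold change 0.06). miR-302b had 84.7 and 117 (0.46), and miR-302c had 482 and 665 (0.46). All 3 were higher on the hypoxia array, but miR-302a only slightly, and its direction turned with median centring of the arrays (-0.075). miR-367, whose seed is that of miR-25 and miR-92a, had 25.7 under normoxia and 37.3 under hypoxia, which is a log2 fold change of 0.54 between signals close to the lowest listed one.

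**Figure D1:**
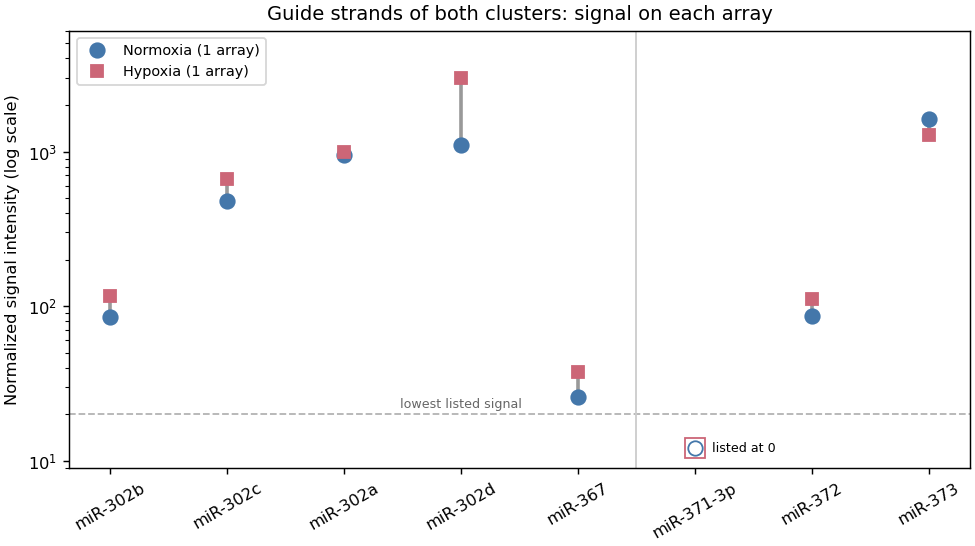
Signal of each guide strand on the normoxia array (circles) and the hypoxia array (squares), on a log scale, with 1 array per condition and no error bars. The signal of miR-302d was 1099 and 3011, while the signals of the other members with a signal lay closer together, and miR-371-3p was listed at 0 on both arrays.

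The difference between miR-302d and its neighbors was taken as the log2 fold change of miR-302d minus the median of the 4 other guide strands of its cluster, which was 0.46. It was 0.99, so the fold change of miR-302d was 1.99 times the median fold change of these neighbors. A scaling factor common to an array cancels in this difference. Taken singly, the difference was 1.39 from miR-302a, 0.99 from miR-302b, 0.99 from miR-302c and 0.91 from miR-367. The log2 fold change of miR-302d stood above that of every neighbor. When a smooth trend of fold change with signal was subtracted, the difference from the median of the neighbors was 1.35, and with 50 added to each signal it was 1.16.

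The other products of the miR-302d hairpin did not share its fold change. The hairpin is printed 5′ to 3′ with the guide strand in capitals, to show where the arms lie.
MIR302D: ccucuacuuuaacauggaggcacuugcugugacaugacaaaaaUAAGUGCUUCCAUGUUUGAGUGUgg
The passenger strand miR-302d*, cut from the 5′ arm of the same hairpin, gave 30 on the normoxia array and 38.3 on the hypoxia array (log2 fold change 0.35). The miR-302d precursor had 56 and 70.7 (0.34). The guide strand was thus 1.10 above its passenger strand and 1.12 above its precursor on the log2 scale. Over all 59 miRNAs of the array with a signal for guide and starred passenger strand on both arrays, the difference exceeded 1 in size in 12, and its median size was 0.58. It was above that of miR-302d in 1 pair, miR-1228, and larger in size in 8, of which all but miR-1228 ran the other way, with the higher fold change on the passenger strand. Over 70 miRNAs with a mature and a precursor signal, 14 differed by over 1 in size and the median size was 0.38, with 5 pairs above miR-302d and 10 larger in size. The signals of miR-302d* and of the precursor were near the low end of the listed range, and no source used here tells what part of the hairpin a precursor probe covers.

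The products of the other hairpins of the miR-302 cluster all differed by less than 2-fold where both arrays gave a signal. miR-302a*, the passenger strand of miR-302a, gave 325 on the normoxia array and 214 on the hypoxia array, 1.52-fold lower (log2 fold change -0.60). It was the only measured product of this cluster that was lower on the hypoxia array, and it lay 0.66 below its own guide strand. Of the 117 other probes with a mean log2 signal within 0.5 of that of miR-302a*, 105 had a higher fold change. miR-302b* had 21.7 and 27.3 (0.33), and the miR-302b precursor had 21.3 and 25 (0.23), both close to the lowest listed signal. The miR-302c precursor had 141 and 219 (0.63), above the value of miR-302c itself. miR-302c* was at 0 on the normoxia array and at 46.3 on the hypoxia array, and the miR-302a precursor, miR-367* and the miR-367 precursor were listed at 0 on both arrays.

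The guide strands of the miR-371 cluster differed in direction. miR-373, which promotes migration and invasion of breast cancer cells by repressing CD44, gave 1631 on the normoxia array and 1281 on the hypoxia array (log2 fold change -0.35). It was the only guide strand of both clusters that was lower on the hypoxia array. miR-372, its neighbor with the same seed, had 86.3 and 112 (0.38). miR-371-3p, whose level in serum is used as a marker of germ cell tumors, was listed at 0 on both arrays, as was the miR-371 precursor.

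Apart from miR-372, every measured probe of the miR-371 cluster was lower on the hypoxia array. All 3 products of the miR-373 hairpin were lower, and this hairpin is printed with its guide strand in capitals for comparison with that of miR-302d.
MIR373: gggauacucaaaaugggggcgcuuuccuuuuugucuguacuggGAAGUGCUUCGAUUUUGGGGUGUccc
miR-373* gave 671 on the normoxia array and 521 on the hypoxia array (log2 fold change -0.37). The miR-373 precursor had 1332 and 904.7 (-0.56). On this hairpin, unlike that of miR-302d, guide and passenger strand differed by only 0.02 in log2 fold change. The guide strand was 0.21 above the precursor. miR-371-5p, the 5′ arm of the miR-371 hairpin, had 827 and 567 (-0.55), and the miR-372 precursor had 110.3 and 102 (-0.12).

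**Figure D2:**
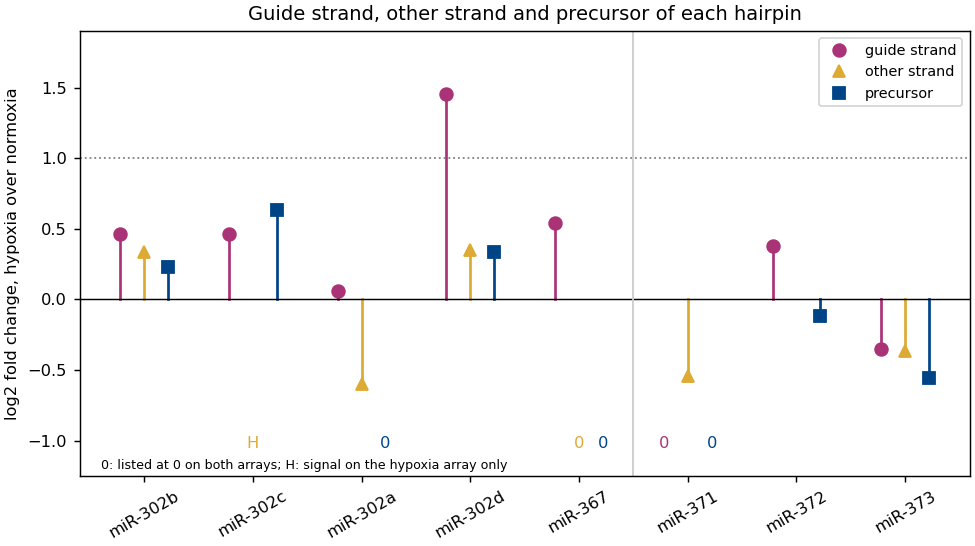
log2 fold change of hypoxia over normoxia for the guide strand, the other strand and the precursor of each hairpin, with the miR-302 cluster left of the vertical line and 1 array per condition. The guide strand of miR-302d, at 1.45, stood apart from its passenger strand (0.35) and precursor (0.34), and 5 of the 6 measured probes of the miR-371 cluster were below 0.

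Counted over all products on the signals as deposited, the clusters differed in direction. Of the 15 probes of the miR-302 cluster, 11 had a signal on both arrays, of which 10 were higher and 1 was lower on the hypoxia array, and the median log2 fold change was 0.35. Of the 8 probes of the miR-371 cluster, 6 had a signal on both arrays, and 1 was higher and 5 lower, with a median of -0.36. Over all 663 probes, 56.3% were higher and 43.6% lower. For mature probes the shares were 53.5% and 46.5%, and for precursor probes 65.4% and 34.0%. This grouping by locus was made after the values were seen. Probes of 1 hairpin share a transcript, and the guide strands of miR-302a to miR-302d share most of their sequence, so they are not independent. After quantile normalization 5 of the 11 probes of the miR-302 cluster were higher, with a median of 0.0, while 5 of the 6 of the miR-371 cluster were still lower. With the trend of fold change by signal subtracted, 7 of the 11 of the miR-302 cluster were higher, with a median of 0.05. These were all 5 guide strands, 1 of 3 passenger strands and 1 of 3 precursors. When the arrays were scaled to equal totals, 4 of the 6 of the miR-371 cluster were lower, with a median of -0.16.

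Fold changes on these arrays moved with the signal, and the members lay at different signals. The median log2 fold change was 0.38 among dim probes, with a mean log2 signal below 7, and -0.22 among bright ones, above 11. A smooth trend through all 663 probes stood at 0.35 for miR-302b, miR-367 and miR-372, the 3 dim members, so that they lay 0.12, 0.19 and 0.03 above it. miR-302c lay 0.37 above the trend, miR-302a 0.05 above it, and miR-373 0.32 below it. For miR-302d the trend stood at -0.05, and miR-302d lay 1.51 above it. Of the 68 other probes with a mean log2 signal within 0.5 of that of miR-302d, 1 had a higher fold change, the precursor of miR-570, and the median of the 68 was -0.01. As deposited, 6 members were higher and 1 lower, while 56.3% of all 663 probes were higher. With the trend removed, 6 members were above 0 and 1 below, with miR-372 and miR-302a above by only 0.03 and 0.05. Over all 663 probes, 342 were then above 0 and 321 below. The median log2 fold change of the members was 0.12 in place of 0.46. Nothing is read from these counts.

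**Figure D3:**
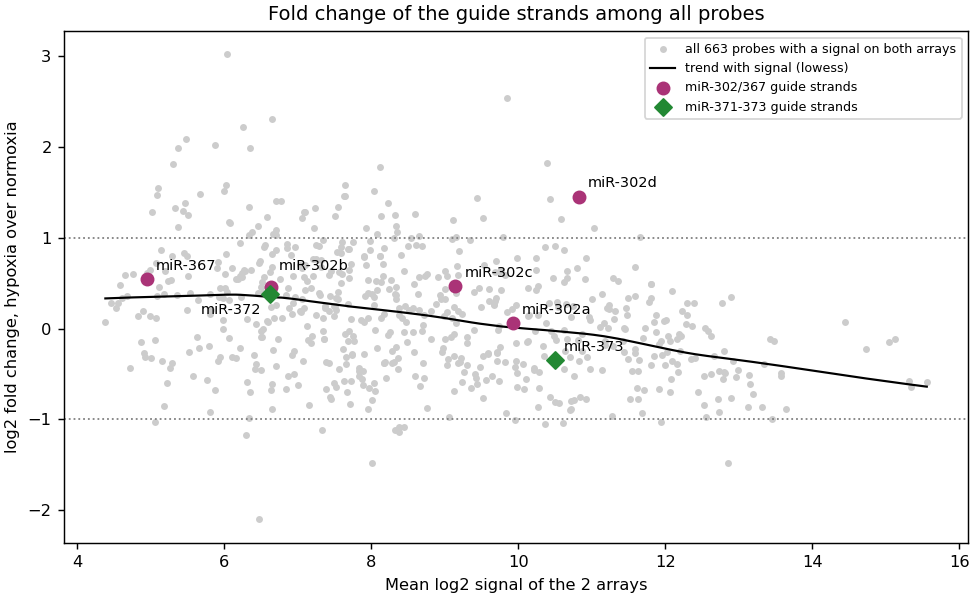
log2 fold change of hypoxia over normoxia against the mean log2 signal of the 2 arrays for the 663 probes measured under both conditions (gray), with the lowess trend (black line) and the members in color. miR-302d lay 1.51 above the trend, while miR-372, miR-302a, miR-302b and miR-367 lay 0.03 to 0.19 above it.

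miRNAs of other genes that carry the seed of miR-302, miR-372 and miR-373 were also measured. miR-302e, a single gene on chromosome 11 whose annotated product has 17 bases and differs from miR-302d by U15C alone, is printed with its seed in capitals.
miR-302e: uAAGUGCUuccaugcuu
Its signal was 2719 on the normoxia array and 3492 on the hypoxia array (log2 fold change 0.36), which is 1.09 below that of miR-302d. miR-520a-3p and miR-520d-3p, from the primate-specific cluster on chromosome 19, had 181 and 315 (0.80) and 75.3 and 133 (0.82). All 3 were higher on the hypoxia array, as were 53.5% of the 510 mature probes, and under 2-fold. After subtraction of the signal trend, miR-302e lay at 0.51, miR-520a-3p at 0.58 and miR-520d-3p at 0.47. miR-520b and miR-520e had a signal under hypoxia only, of 36.7 and 21, and miR-520c-3p was listed at 0 on both arrays. Of all probes that were at 0 on the normoxia array, 26.2% were above 0 on the hypoxia array.

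The seed of miR-367 is shared by miR-25, miR-32, miR-92a, miR-92b and miR-363, which repress proapoptotic and cell cycle genes in many tissues. All 5 were lower on the hypoxia array, as were 46.5% of the 510 mature probes. Their log2 fold changes lay between -0.55 for miR-25 and -0.15 for miR-92b. That of miR-367 was 0.54, between signals close to the lowest listed one. miR-25 gave 8532 on the normoxia array and 5808 on the hypoxia array, and miR-363 had 221 and 162. After subtraction of the signal trend, all 5 were still below 0, between -0.70 for miR-363 and -0.07 for miR-92a, and miR-367 lay at 0.19. Over all 663 probes, 342 lay above the trend and 321 below it. The miR-17 family, whose seed is that of miR-302 moved by 1 base, had 7 members on the array, of which 1 was higher and 6 lower, with a median of -0.48. After subtraction of the trend 3 were above 0 and 4 below, and the median was -0.19.

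**Figure D4:**
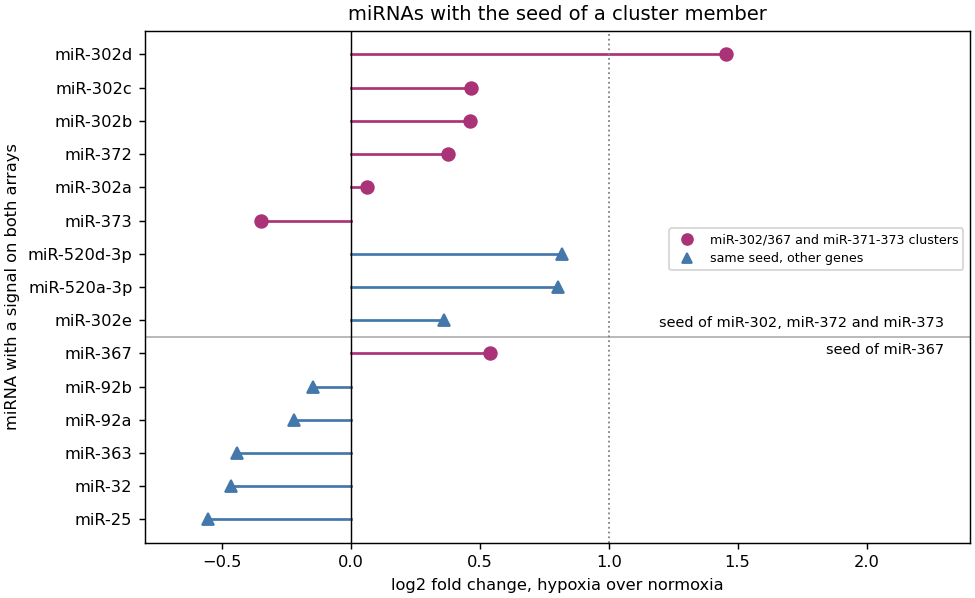
log2 fold change of hypoxia over normoxia for each miRNA that carries the seed of a cluster member and had a signal on both arrays, with cluster members as circles and other genes as triangles. In the upper group only miR-302d was over 2-fold higher and only miR-373 was lower, and in the lower group miR-367, at 0.54, was the only miRNA above 0.

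miRNAs that mark differentiated cells were measured on the same arrays. Beside the counts below, 53.5% of the 510 mature probes were higher and 46.5% lower on the hypoxia array. Of all 663 probes, 342 lay above the signal trend and 321 below it. let-7 miRNAs repress pluripotency factors such as LIN28 and MYC, and miR-145 represses OCT4, SOX2 and KLF4 in human embryonic stem cells. Of 10 such miRNAs, the let-7 family with miR-98 and miR-145, 7 were higher and 3 lower on the hypoxia array, none by 2-fold, and the median log2 fold change was 0.08. Apart from miR-145, for which the trend stood at 0.02, these were bright probes that lay where the trend is below 0. Once the trend was subtracted, 9 of the 10 were above 0 and 1 below, with a median of 0.32. miR-145 had 735 under normoxia and 1104 under hypoxia (0.59). Of 7 epithelial miRNAs, the miR-200 family with miR-203 and miR-205, all had a signal on both arrays. On the hypoxia array 3 of them were higher and 4 lower (median log2 fold change -0.09), and all 7 were below the trend. Of 4 miRNAs of gastrointestinal epithelium, 3 were measured on both arrays and lower under hypoxia, and miR-375 was at 0 and then at 70.7. The blood cell marker miR-451 was listed at 0 on both arrays, and miR-144 was at 0 under normoxia and at 22.7 under hypoxia. The blood cell markers miR-142-3p, miR-142-5p, miR-223 and miR-150 had signals on both arrays. In that order, their normoxia and hypoxia signals were 338 and 209, 921 and 621, 258 and 174, and 666 and 903. Of these 4, miR-150 was higher under hypoxia (log2 fold change 0.44) and the other 3 were lower, between -0.69 and -0.57. All 4 muscle markers measured were higher, against 53.5% of the 510 mature probes, and miR-206 was over 2-fold higher. After subtraction of the trend 3 were above 0 and 1, miR-133b, was below 0 (-0.17). The part of background binding in the signals of the pluripotency clusters was not tested.

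The promoter of MIR302CHG was searched for the core of the hypoxia response element, the DNA site bound by hypoxia-inducible factors. RefSeq gives MIR302CHG more than 1 start, and 2 windows of 300 bases, from 250 bases before to 50 after a start, were held in the table used. ACGTG, read on both strands, occurred once in 1 window and not in the other, and 21.4% of all 35116 promoter windows of this length hold it. GCGTG occurred in neither, against 36.5% of all windows. These are matches of letters in a short window. They are no evidence for or against a bound factor.

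Processing changed the size of the members' fold changes more than their direction. Over 10 alternatives the log2 fold change of miR-302d lay between 1.32 and 1.65, over 2-fold in each. That of miR-373 lay between -0.48 and -0.15, and that of miR-302c between 0.33 and 0.66. The dim members moved most, with miR-302b between 0.12 and 0.66, miR-367 between 0.17 and 0.74 and miR-372 between 0.02 and 0.57. The alternatives reuse the same 2 arrays and stand in for no replicate.

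**Figure D5:**
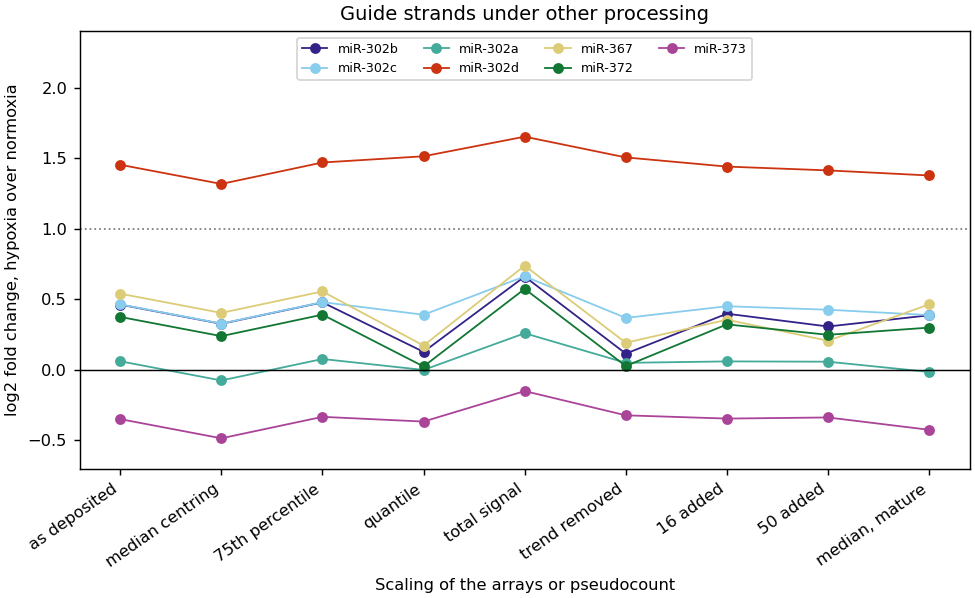
log2 fold change of hypoxia over normoxia of the 7 guide strands with a signal on both arrays, as deposited and under 8 other scalings or pseudocounts, with 1 array per condition. miR-302d stayed above the 2-fold line at 1, between 1.32 and 1.65, and miR-373 stayed below 0.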

How the data were processed

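Total RNA of MKN1 cells under normoxia or hypoxia was measured on 1 GenoSensor miRNA array per condition (miRBase version 13 per the labels). The authors read spot signals with GeneSpring GX, normalized them on global signal intensity, and deposited them as linear intensity values. The GeneSpring GX version and the probe sequences are not given in the sources used here. Both deposited tables held equal signals for 1329 of 1329 probes. Columns of the authors' own comparison, a ratio and a p-value, were not used.

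Fold changes were calculated without pseudocount or filter for the 663 probes above 0 under both conditions, and no test was made with 1 array per condition. The members and lists were chosen with earlier results of these data known. All 8 members, the other products of their hairpins, miR-302 genes elsewhere and miRNAs sharing a member's seed are named. The plan also listed the 5 mature probes nearest to miR-302d in log2 signal on the 2 arrays, which are not given here. miRNA sequences were taken from RefSeq (GRCh38.p14), where 594 of 879 mature probes matched by name, so the seed families may miss members. Similar signal means within 0.5 in mean log2 signal. The trend was fitted by lowess (span 0.4), and scaling functions were tested on simulated data. Alternatives were median centring, 75th percentile, quantile and total scaling, trend removal, pseudocounts of 16 and 50, filters on dim probes, thresholds of 1.5-fold and 3-fold, the other table, and zeros read as 20. Python 3.11.15, numpy 2.4.6, pandas 2.3.3, statsmodels 0.14.6 and matplotlib 3.10.9 were used.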

Additional observations from a re-analysis of the deposited data

Results flagged for a closer look

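In addition to the guide strands, 2 probes of miR-302 genes had a signal on the hypoxia array and none on the normoxia array. miR-302c* went from 0 to 46.3, and miR-302f, a single gene outside the cluster, from 0 to 20.7. On the whole array 174 of the 664 probes at 0 on the normoxia array were above 0 on the hypoxia array, with a median of 27.2. With 1 array per condition these differences were not tested.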

How the results depend on the processing

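No paired analysis was possible because each condition had 1 array, and for the same reason no replicate could be left out. The log2 fold change of miR-302a turned from 0.06 to -0.075 after median centring and to -0.014 after median centring over mature probes, and was 0.0 after quantile normalization. The number of members over 2-fold higher went from 1 to 0 when counted at 3-fold, by construction. The number of miR-302 cluster probes higher under hypoxia went from 10 to 5 of 11 after quantile normalization, and the cause was not tested. The other members kept their direction, and miR-302d its side of 2-fold, in all 10 alternatives that gave them a value. Among these, the other table, with equal signals, and zeros read as 20 could not change a member measured on both arrays. The difference between miR-302d and its neighbors lay between 0.99 and 1.36 over 12 alternatives. Scalings by a factor common to an array, the other table and zeros read as 20 could not change this difference from 0.99. It was 1.36 with quantile normalization, 1.35 with the trend removed, and 1.06 and 1.16 with pseudocounts of 16 and 50. Against the mean of the neighbors it was 1.07, and without miR-367 it was 0.99. No member was over 2-fold lower in 14 alternatives. After the filters on dim probes 4 members were left, with a median of 0.26. The locus results were added after the data were seen. Signals near 20, as for miR-367 and miR-302b*, are limited by the lowest listed signal.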
